A study of Mus musculus with 8 samples.

Results

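The genes described here are the cytoplasmic arm of Wnt signalling: the GSK-3 binding genes Frat1 and Frat2, the kinase genes Gsk3a, Gsk3b and Csnk1a1, the scaffold genes Apc and Axin1, and the Dishevelled genes Dvl1, Dvl2 and Dvl3. They were taken by symbol, and each of the 10 matched 1 row of the 39179 genes counted. RNA was sequenced from mouse pancreatic ductal adenocarcinoma cells of the iKPC model. All cells shared ROSA_rtTA, a doxycycline-dependent activator, p48-Cre, a pancreas-directed Cre recombinase, and a transgene that the activator switches on. Each of 4 cell lines was sequenced once with overexpressed WT-USP21 and once with overexpressed ED-USP21, which gave 8 libraries. By background, lines 1 and 2 were FVB/C57Bl6, whereas C57BL/6 was given for lines 3 and 4. USP21 is a deubiquitinase, and the labels do not spell out ED. Whether a line is 1 clone, how long the constructs were expressed and whether doxycycline was present were not given in the sources used here. Cells without a construct were not analysed here.

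In the absence of a Wnt ligand, beta-catenin is held by a destruction complex built on the scaffolds Axin and Apc. Casein kinase 1 alpha, the product of Csnk1a1, and then GSK-3 phosphorylate it there, which marks it for ubiquitination and breakdown. When a Wnt ligand binds Frizzled and an LRP co-receptor, Dishevelled polymerises at the membrane and draws Axin to it, and beta-catenin accumulates and acts with TCF factors on target genes. Frat proteins bind GSK-3 at a surface that Axin also uses, and in excess they favour beta-catenin accumulation.

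Frat2 was the one gene of the 10 whose WT-USP21 libraries all lay below all ED-USP21 libraries, and its level was about a constant step lower with WT-USP21 in each line. Frat1 lies next to it on chromosome 19, with 0 annotated genes between them, and had far fewer reads. The upstream sequences of this pair are shown because they precede the gene the results turn on and its closest relative, and their activity in these cells was not tested. They are the 250 bases before the annotated start, from RefSeq on GRCm38.p6, and the capitals mark the best ungapped match between the pair, found with a score of 1 per match and -2 per mismatch.
Frat2, minus strand, chr19:41848133-41848382: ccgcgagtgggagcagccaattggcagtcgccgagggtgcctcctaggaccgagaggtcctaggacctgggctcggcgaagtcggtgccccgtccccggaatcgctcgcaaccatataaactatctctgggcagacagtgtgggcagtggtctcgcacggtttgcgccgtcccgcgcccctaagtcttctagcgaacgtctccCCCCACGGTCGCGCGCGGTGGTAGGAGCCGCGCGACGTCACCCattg
Frat1, plus strand, chr19:41829720-41829969: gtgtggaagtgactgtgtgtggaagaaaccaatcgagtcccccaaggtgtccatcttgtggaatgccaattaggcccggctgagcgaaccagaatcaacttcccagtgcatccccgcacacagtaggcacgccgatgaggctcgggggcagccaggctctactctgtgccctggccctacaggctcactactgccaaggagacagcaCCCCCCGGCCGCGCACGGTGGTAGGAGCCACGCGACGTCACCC
The capitals are 43 bases long, of which 39 are identical and 4 differ between the genes. They end at the start site of Frat1 and 4 bases before that of Frat2. Inside them are unbroken identical runs of 14 bases, CGGTGGTAGGAGCC, and 13 bases, CGCGACGTCACCC. Read on both strands, each run occurs in 2 of the 32851 upstream windows of the same length in the table, those of Frat1 and Frat2. GC content was 66.0% in the Frat2 window, with 29 CpG, and 62.0% in that of Frat1, with 14 CpG, against medians of 52.4% and 6 over all windows. The TCF/LEF core CTTTGA, searched on both strands, is in neither window, nor is the GC box GGGCGG. Of the 10 genes, 7 have an upstream window in the table. The TCF/LEF core is in those of Gsk3a and Gsk3b and in 13.8% of all windows, and the GC box is in those of Gsk3a, Dvl1, Dvl2 and Dvl3 and in 32.7% of all windows.

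The libraries held 72.8 to 107.6 M gene counts (M, 1e6). In lines 1 to 4 the level of Usp21 in counts per 1e6 (CPM) was 147, 944, 539 and 941 for WT-USP21 and 1660, 3130, 1660 and 2720 for ED-USP21. The ED-USP21 library was the higher in each line, with a mean log2 difference of -2.10 (SD 0.94, n = 4) and p = 0.13 in an exact 2-sided sign-flip test, the smallest p that 4 pairs allow. Form and amount of Usp21 cannot be told apart in any difference below. Both libraries of line 1 stand apart: over all genes tested, line 1 differed from the mean of lines 2 to 4 by a median of 0.40 on the log2 scale, against 0.11 between the constructs. Results are therefore also given without line 1. Deviations from the group means correlated positively between lines 2, 3 and 4 as well. A group mean that includes line 1 moves these lines the same way, so the correlations cannot decide whether they are independent. Keratin genes marked the cells as epithelial, with Krt19 at 961 to 2590 CPM, while Epcam reached 5.35 CPM at most. The fibroblast genes Dcn and Lum had 0 reads and the leukocyte gene Ptprc reached 0.28 CPM. Summed over 8 genes, fibroblast markers ranged from 6.85 to 18.2 CPM with WT-USP21 and 4.79 to 8.39 CPM with ED-USP21. The highest sum was that of the WT-USP21 library of line 4, with Col1a2 at 5.33 and Col3a1 at 3.17 CPM. In the ED-USP21 library of that line these stood at 0 and 0.0129 CPM. Over 7 genes, immune markers ranged from 50.4 to 76.0 and from 41.5 to 115 CPM, most of it Cd14 and Cd68. The 6 endothelial markers summed to at most 2.39 CPM and the 6 acinar markers to at most 12.3 CPM, with Ptf1a at 0 reads. The part of these cell types in the results was not tested, and in bulk RNA fewer cells of a type and less RNA per cell cannot be told apart.

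Comparing both constructs within a line asks whether RNA of the genes that hold or release beta-catenin differed with the construct. Differences are log2, WT-USP21 minus ED-USP21, from the edgeR quasi-likelihood test with the line as a block, and adjusted p-values are Benjamini-Hochberg over all genes tested. With 4 lines 0 of the 10 genes passed an adjusted p of 0.05, against 0.0247% of the 16192 genes tested, and 1 had an unadjusted p under 0.05, Frat2, against 8.28% of all genes. Without line 1, 1 of the 10 was lower and 0 were higher, against 4.57% of 16326 genes called in either direction, 2.06% called lower and 2.51% called higher. DESeq2 with 4 lines also called 1 lower and 0 higher, against 2.51% of genes called in either direction, 0.568% called lower and 1.95% called higher. In both cases the gene was Frat2. The median difference of the 10 genes was 0.00, as over all genes tested, and their median absolute difference was 0.07 against 0.11.

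**Figure D1:**
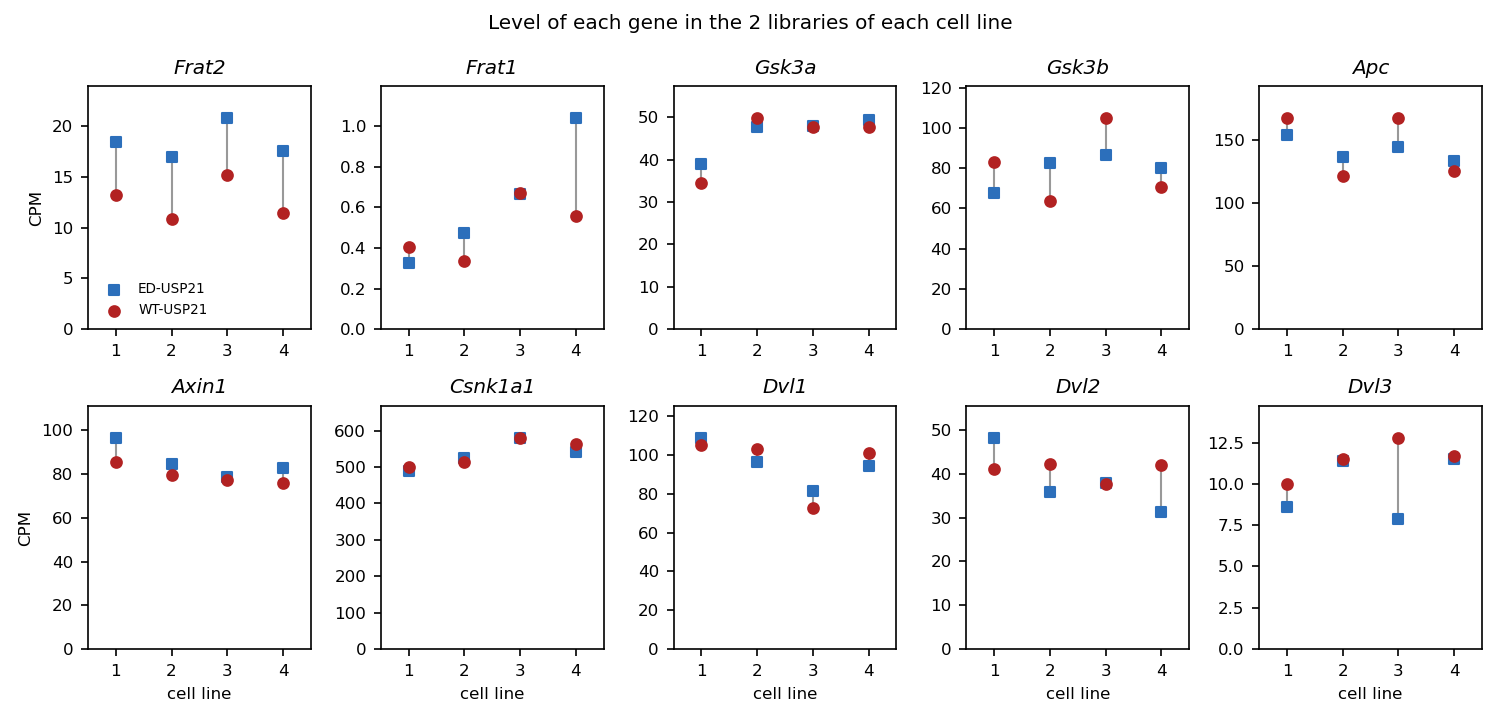
Level in CPM (y axis, from 0, its own scale in each panel) of the 10 genes in cell lines 1 to 4 (x axis). Red circles are WT-USP21 and blue squares ED-USP21 libraries, 1 library each, joined within a line. Frat2 is the panel in which each red circle lies below all the blue squares.

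Frat2 (ENSMUSG00000047604) encodes a GSK-3 binding protein and has 1 exon. In lines 1 to 4 it stood at 13.2, 10.8, 15.2 and 11.4 CPM with WT-USP21 and, in the same order, with ED-USP21 at 18.4, 16.9, 20.8 and 17.5 CPM. The highest WT-USP21 library, that of line 3, was below the lowest ED-USP21 library, that of line 2, so the groups did not overlap. Such a gap towards ED-USP21 was found for 0.71% of all genes tested, and a gap in either direction for 1.78%. The level was lower with WT-USP21 by 28.5%, 35.6%, 27.1% and 34.5% in lines 1 to 4. In the within-line test the log2 difference was -0.55 (SE 0.08, 95% interval -0.73 to -0.36), a level 31.6% lower (95% interval 22.1% to 39.9%), with an edgeR adjusted p of 0.144. Its unadjusted p was 0.000364, the 40th smallest of all genes and the second smallest of those lower with WT-USP21. Frat2 fell with WT-USP21 in the test without line 1 (log2 -0.56, SE 0.07, edgeR adjusted p = 0.0161), where 72 other genes called lower had a smaller p. Of the cell type markers, Krt19 (-0.58, edgeR adjusted p = 0.0261) and Cd14 (-0.62, adjusted p = 0.00892) also fell without line 1, and their part in the Frat2 result was not tested. It also fell in DESeq2 with 4 lines (log2 -0.54, adjusted p = 3.35e-07). Without the line as a block the difference was -0.54 (edgeR unadjusted p = 0.00531, adjusted p = 1). Leaving out lines 2, 3 and 4 in turn gave -0.52, -0.58 and -0.52 (edgeR adjusted p = 0.844, 0.55 and 0.757). The call thus depended on which line was left out and on the tool, while the size of the difference did not.

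Frat1 (ENSMUSG00000067199), the founding member of the family, had few reads. In lines 1 to 4 the WT-USP21 libraries held 37, 34, 64 and 48 reads of it, which is 0.402, 0.337, 0.672 and 0.557 CPM. The ED-USP21 libraries held 34, 35, 62 and 81 reads, or 0.327, 0.473, 0.667 and 1.04 CPM. The high value was the ED-USP21 library of line 4, and the groups overlapped. The difference was -0.27 (SE 0.30, 95% interval -1.0 to 0.45, edgeR adjusted p = 0.876) and 2 of 4 lines lay on each side of 0. The ratio of all 183 WT-USP21 reads to all 212 ED-USP21 reads, scaled to TMM-adjusted library sizes, was 0.804 (exact 95% interval 0.656 to 0.985, counting error only). Leaving out lines 1, 2, 3 and 4 in turn, it was 0.711 (0.568 to 0.89), 0.845 (0.675 to 1.06), 0.727 (0.567 to 0.931) and 0.969 (0.756 to 1.24), and the fitted log2 difference ranged from -0.45 to -0.06. Single lines ran from 1.23 in line 1 (0.75 to 2.02) to 0.535 in line 4 (0.366 to 0.773), with intervals that overlap. Whether the lines differed beyond counting error was not tested. The fitted interval over lines covers folds from 0.502 to 1.36, which includes the 0.684 of Frat2, so a difference of that size in Frat1 was neither shown nor excluded. Peg12, an imprinted gene of the same family in the mouse, had 0 reads in all 8 libraries. Per kilobase of exon, Frat2 made up 95.3% to 98.6% of the summed Frat1 and Frat2 level in the 8 libraries. The transcripts of the pair share 71 stretches of 50 bases, 3.36% of those of Frat2 and 2.77% of those of Frat1. The Frat2 totals of 4735 (WT-USP21) and 6457 (ED-USP21) reads far exceed the 183 and 212 of Frat1. Reads from shared stretches could therefore be few beside the Frat2 count and still many beside that of Frat1. How many Frat1 reads came from such stretches was not tested, and the read length is not given here.

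The target of the Frat proteins, GSK-3, is a pair of kinases that phosphorylate beta-catenin in the complex. Gsk3a (ENSMUSG00000057177) stood at 34.5, 49.9, 47.7 and 47.7 CPM with WT-USP21 and at 39.1, 47.7, 48.0 and 49.4 CPM with ED-USP21. Both libraries of line 1 were low and the constructs overlapped. Its difference was -0.04 (SE 0.06, 95% interval -0.20 to 0.11, edgeR adjusted p = 0.913). Gsk3b (ENSMUSG00000022812) stood at 83.0, 63.8, 105 and 70.8 CPM with WT-USP21 and at 67.8, 82.7, 86.3 and 80.2 CPM with ED-USP21. It was higher with WT-USP21 in lines 1 and 3 (log2 0.29 and 0.28) and lower in lines 2 and 4 (-0.37 and -0.18), which left a difference of 0.00 (SE 0.13, 95% interval -0.31 to 0.32, edgeR adjusted p = 0.998). The interval for Gsk3b covers folds from 0.808 to 1.25, so a moderate difference in it was not measurable with these lines. Per kilobase of exon Gsk3a made up 58.5% to 72.6% of the GSK-3 level, with 65.3% ± 6.81 with WT-USP21 and 66.3% ± 0.947 with ED-USP21 (SD, n = 4 each).

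The level of both GSK-3 genes together, set against both Frat genes together, describes the RNA balance between the kinases and their binding proteins. Per kilobase of exon, in lines 1 to 4 this ratio was 3.26, 4.60, 3.72 and 4.30 with WT-USP21 and 2.36, 3.11, 2.56 and 2.97 with ED-USP21. All 4 WT-USP21 values were above all 4 ED-USP21 values. Within lines the ratio was higher with WT-USP21 by 0.47, 0.56, 0.54 and 0.53 on the log2 scale, a mean of 0.53 (SD 0.04, n = 4), with p = 0.13 in an exact 2-sided sign-flip test, the smallest p that 4 pairs allow. The summed Frat level carried this, at -0.47, -0.63, -0.44 and -0.62, while the summed GSK-3 level differed by 0.00, -0.07, 0.10 and -0.09. Frat2 made up 95.3% to 98.6% of the Frat sum, so the ratio largely restates the Frat2 difference and is no separate result. How often ratios of other genes separate the constructs in this way was not computed.

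**Figure D2:**
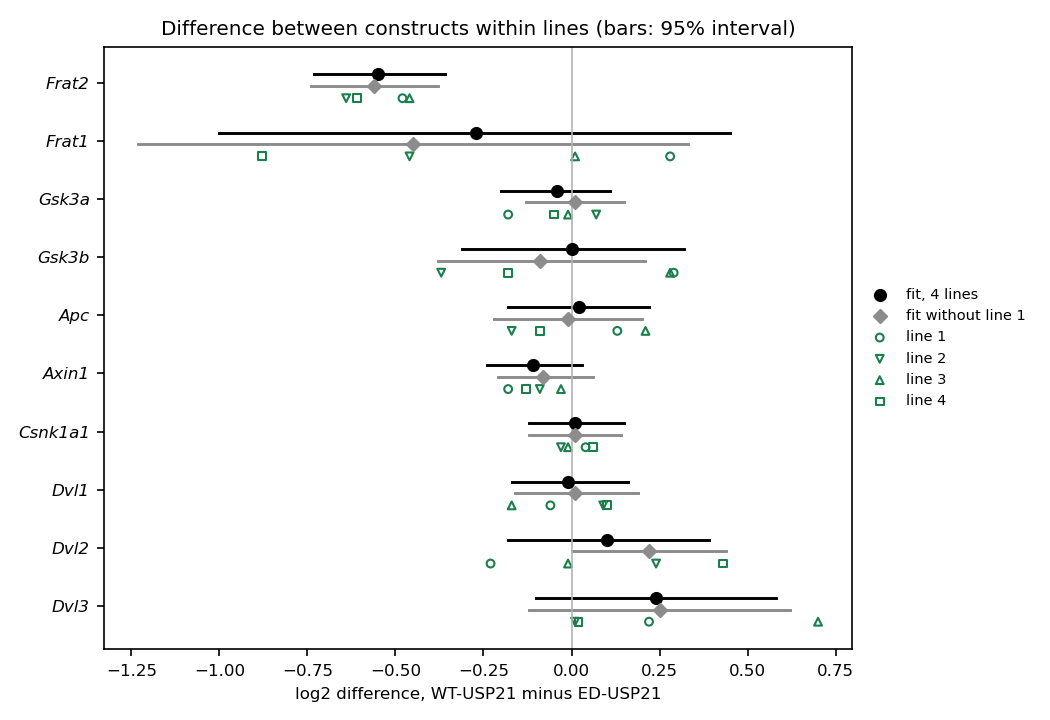
Log2 difference, WT-USP21 minus ED-USP21 (x axis), for each of the 10 genes (y axis). Black circles with bars are the edgeR within-line estimate with its 95% interval over 4 lines, grey diamonds the same without line 1, and open green symbols the single differences of lines 1 to 4. The interval of Frat2 lies below 0 in both fits, and the other 9 intervals over 4 lines include 0.

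Csnk1a1 (ENSMUSG00000024576), the kinase that primes beta-catenin for GSK-3, was the steadiest of the 10. It stood at 501, 515, 579 and 563 CPM with WT-USP21 and at 489, 526, 581 and 541 CPM with ED-USP21, so the lines differed more than the constructs. Its difference was 0.01 (SE 0.05, edgeR adjusted p = 0.977), and the 95% interval limits it to between 0.922-fold and 1.11-fold. Axin1 (ENSMUSG00000024182), the scaffold on which the complex forms, stood at 85.6, 79.7, 77.2 and 75.9 CPM with WT-USP21 and at 96.7, 84.8, 78.6 and 83.0 CPM with ED-USP21. The ED-USP21 value was the higher in 4 of 4 lines, though the groups overlapped, and the difference was -0.11 (SE 0.05, 95% interval -0.24 to 0.03, edgeR adjusted p = 0.696). Among all genes tested, 7.73% lay lower with WT-USP21 in every line. Apc (ENSMUSG00000005871), the large scaffold lost in many colorectal tumours, stood at 168, 122, 168 and 126 CPM with WT-USP21 and at 154, 137, 145 and 134 CPM with ED-USP21. It was higher with WT-USP21 in lines 1 and 3 and lower in lines 2 and 4, the same signs as Gsk3b, and its difference was 0.02 (SE 0.08, 95% interval -0.18 to 0.22, edgeR adjusted p = 0.977).

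Dishevelled proteins carry the signal from the receptors to the complex. Dvl1 (ENSMUSG00000029071) stood at 105, 103, 72.8 and 101 CPM with WT-USP21 and at 109, 96.4, 81.7 and 94.6 CPM with ED-USP21. Line 3 was low with both constructs, and the difference was -0.01 (SE 0.07, 95% interval -0.17 to 0.16, edgeR adjusted p = 0.991). Dvl2 (ENSMUSG00000020888) stood at 41.2, 42.2, 37.7 and 42.1 CPM with WT-USP21 and at 48.3, 35.8, 38.0 and 31.2 CPM with ED-USP21. The WT-USP21 values lay close together and the ED-USP21 values were spread around them. Its difference was 0.10 (SE 0.11, 95% interval -0.18 to 0.39, edgeR adjusted p = 0.879), and without line 1, which lay at -0.23, it was 0.22 (SE 0.09, unadjusted p = 0.0465, adjusted p = 0.264). Dvl3 (ENSMUSG00000003233) stood at 10, 11.5, 12.8 and 11.7 CPM with WT-USP21 and at 8.57, 11.4, 7.89 and 11.5 CPM with ED-USP21. The WT-USP21 library was the higher in each of 4 lines, as for 9.02% of all genes tested, but by 0.22, 0.01, 0.70 and 0.02 on the log2 scale, so lines 2 and 4 were nearly equal. The difference was 0.24 (SE 0.14, 95% interval -0.10 to 0.58, edgeR adjusted p = 0.738), and without line 3 it was 0.09. The 3 Dishevelled genes summed per kilobase of exon differed by -0.08, 0.12, -0.07 and 0.17 in lines 1 to 4.

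**Figure D3:**
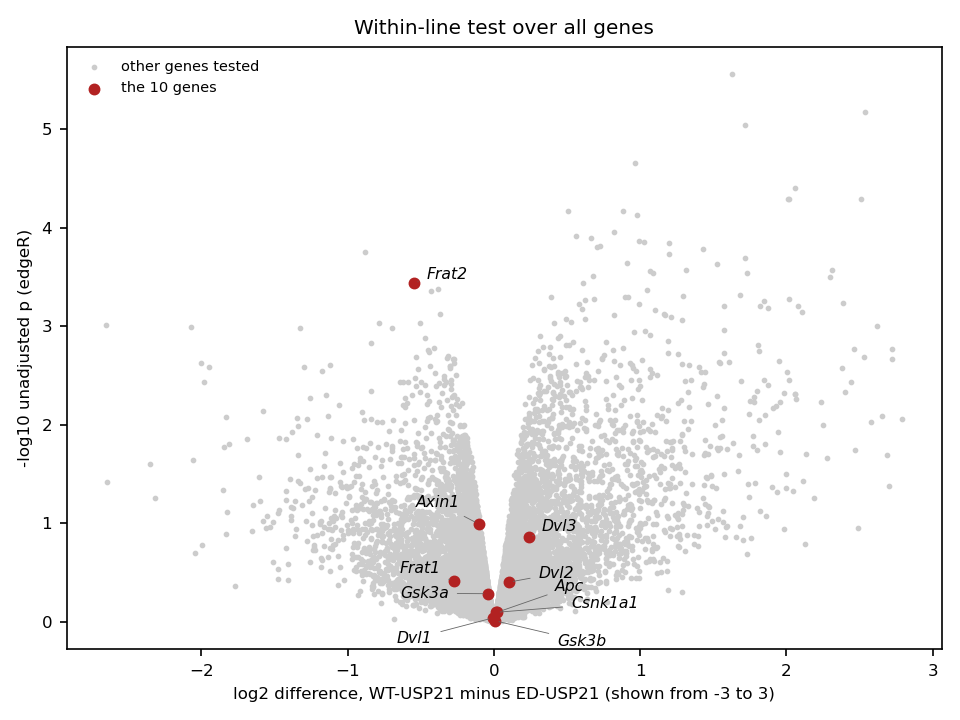
Each of the 16192 genes tested within lines by its log2 difference (x axis, shown from -3 to 3) and -log10 of its unadjusted edgeR p (y axis). The 10 genes are red. Frat2 stands near the upper left edge of the cloud and the other 9 lie in its lower part.

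Compared per length, the 10 genes spanned over 2 orders of magnitude. On the scale of CPM per kilobase of exon, Csnk1a1 came first with a mean of 51.1 over 8 libraries (range 46.6 to 55.4), well above Axin1 at 21.6 (19.8 to 25.3). Dvl1 (mean 19.1) and Gsk3a (15.7) followed, and the ranges of Axin1, Dvl1 and Gsk3a overlapped from one to the next. The next 4 were Apc at 8.95, Gsk3b at 8.13, Frat2 at 7.19 and Dvl2 at 6.28, again with ranges that overlapped from one to the next. With WT-USP21 Frat2 stood at 5.86 ± 0.903 and with ED-USP21 at 8.51 ± 0.808 on this scale (SD, n = 4 each). Dvl3 at 1.66 and Frat1 at 0.214 came last, and neither range overlapped its neighbour's. Among the Dishevelled genes Dvl1 held 64.6% to 73.7% of the summed level per kilobase in the 8 libraries, Dvl2 19.3% to 26.5% and Dvl3 4.34% to 8.87%. Exon lengths are the union of all annotated exons of a gene and can exceed its longest transcript. For Csnk1a1 the union is 10.502 kb and the longest transcript 4083 bases, while for Frat2 they are 2.161 kb and 2161 bases. The lengths also came from a later annotation than that used for counting. The order and the shares per kilobase carry both uncertainties, whereas comparisons within a gene do not.

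**Figure D4:**
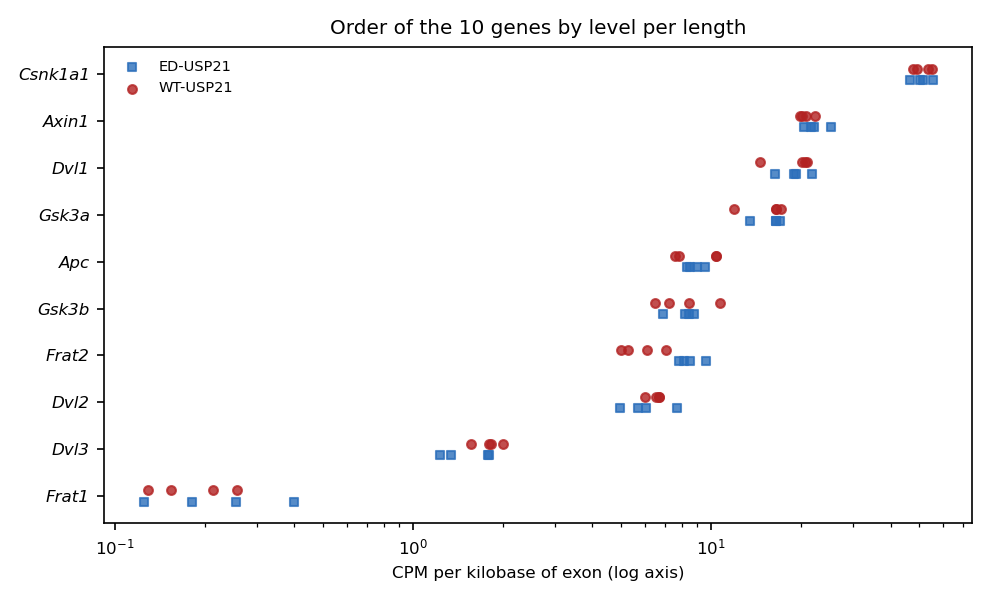
CPM per kilobase of exon (x axis, log scale) of the 10 genes, ordered by mean over 8 libraries. Each red circle is a WT-USP21 library and each blue square an ED-USP21 library. Csnk1a1 is highest and Frat1 lowest, and within most genes the constructs are interleaved, with Frat2 the exception.

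The spread between lines in most of these genes was near that of other genes of similar level. The SD of the 4 line means of log2 CPM was 0.10 in Csnk1a1 and in Axin1 and at most 0.20 in 9 of the genes. Its median was 0.26 over all genes tested and 0.17 over the 9152 with a mean of at least 10 CPM. Frat1 was the exception at 0.51, with line means from 0.365 CPM in line 1 to 0.80 CPM in line 4. For Frat2 the SD of the line means was 0.17 and that of the 4 construct differences 0.09, against medians of 0.17 and 0.15 over genes with a mean of at least 10 CPM and 0.26 and 0.25 over all genes. Construct differences varied most between lines in Frat1 (SD 0.51), which had few reads, followed by Gsk3b (0.33), Dvl3 (0.32) and Dvl2 (0.29). Apc (0.18), Dvl1 (0.13) and Gsk3a (0.10) were also above Frat2, while Axin1 (0.06) and Csnk1a1 (0.04) were below it. Line 1, which stood apart over all genes, was low in Gsk3a (log2 -0.40 against the mean of the other lines) and in Frat1 (-0.67). It was within 0.05 of the other lines in Frat2.

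The background labels allow the question whether the construct difference depended on strain, with lines 1 and 2 against lines 3 and 4. None of the 10 genes passed in edgeR (0 of 10, against 0% of the 16192 genes called), and 0 of the 10 had an unadjusted p under 0.05, against 375 of all genes. DESeq2 called 7 genes in all and 0 of the 10. For Frat2 the difference of differences, FVB/C57Bl6 minus C57BL/6, was -0.03 (SE 0.17, 95% interval -0.46 to 0.41, edgeR adjusted p = 0.994). For Gsk3b it was -0.09 with an interval of -0.80 to 0.62, and for Dvl3 -0.24 with -0.98 to 0.49, so for these the comparison excludes little. The interval of Frat2 is also wide, reaching nearly the size of its construct difference of -0.55.

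Exon overlap or shared sequence with other genes was found for each of the 10 genes other than Axin1 and Csnk1a1. Dvl2 shares 1151 of its 6.298 kb of annotated exon with Acadvl on the opposite strand, and Gsk3a shares 820 of its 2.9 kb with the antisense gene 9130221H12Rik. Dvl1 shares 36 bases with Tas1r3 on the opposite strand. Whether counting used strand was not stated. Of stretches of 50 bases, other annotated genes hold 25.7% of those of Gsk3a, 13.0% of those of Dvl2, 1.43% of those of Dvl3, 0.32% of those of Apc and 0.0203% of those of Gsk3b. Acadvl, an enzyme gene of fatty acid oxidation, had a log2 difference of -0.01 and 9130221H12Rik one of 0.11, neither of which passed. Csnk1a1, Axin1 and Dvl1 shared 0 stretches of 50 bases with transcripts of other annotated genes.

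Genes with a pattern most like that of Frat2 were sought by Pearson's r of log2 CPM over the 8 libraries, 2 of each line. They were Ndufa5, a complex I subunit gene (r = 0.981), the kinase gene Oxsr1 (0.944) and the splicing-associated gene Thrap3 (0.941). These 3 lay lower with WT-USP21 in every line, as did 7.73% of all genes tested, with smaller differences of -0.10, -0.18 and -0.13. Choosing genes for likeness to Frat2 favours that direction, so it is no added result. For Frat1 they were Pdss2 (0.951), Dcbld1 (0.941) and Slc23a1 (0.927). Golgb1 (0.981) came first for Gsk3b and shared its alternating signs, at 0.29, -0.27, 0.24 and -0.12 in lines 1 to 4. These values are descriptions of 8 libraries and carry no test.

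Other genes of the pathway were read from lists. Of 50 further genes of the complex, of beta-catenin ubiquitination and Axin turnover, and of Dishevelled regulation, 45 could be tested. edgeR called 0 of them with 4 lines and, without line 1, 1 higher and 1 lower, Axin2 and Ccdc88c, against 2.51% and 2.06% of all genes. Their median difference was 0.01. Among the other parts of the complex (17 tested, median 0.01), Axin2 differed most, by 6.15 (SE 1.03). Its adjusted p was 0.197 in edgeR with 4 lines and 9.44e-08 in DESeq2. It had 4468 reads in the WT-USP21 libraries against 50 in the others, and differed by 2.67, 7.63, 6.27 and 8.37 in lines 1 to 4. Axin2 is also counted below as transcriptional output of beta-catenin. The next smallest p-values were those of 2 subunit genes of the phosphatase PP2A, which opposes the kinases, and of a GSK-3 binder. Ppp2r5d differed by -0.13 (SE 0.06), Ppp2ca by -0.11 (SE 0.06) and Gskip by 0.19 (SE 0.10), with edgeR adjusted p-values of 0.62, 0.699 and 0.689. The beta-catenin gene Ctnnb1 itself stood at 1610 ± 364 CPM with WT-USP21 and 1570 ± 123 CPM with ED-USP21 (SD, n = 4 each). In the list of ubiquitination and Axin turnover (12 tested, median -0.01) the differences ran from -0.11 to 0.10. They included the deubiquitinase gene Usp7 (-0.11), the Axin-directed ligase gene Rnf146 (0.10), the tankyrase gene Tnks2 (0.09) and Btrc (0.09), whose product recognises phosphorylated beta-catenin.

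Regulators and partners of Dishevelled (16 tested, median 0.00) held 4 genes at an unadjusted p under 0.05, against 8.28% of all genes, and 0 called by edgeR with 4 lines. Ccdc88c, which encodes the Dishevelled-binding protein Daple, stood at 15.9, 26.9, 24.4 and 26.3 CPM with WT-USP21 and at 17.0, 33.3, 35.4 and 40.1 CPM with ED-USP21. Line 1 was low with both constructs and close to equal. Its difference was -0.39 (SE 0.10, edgeR adjusted p = 0.363), and without line 1 it fell with WT-USP21 (-0.48, adjusted p = 0.0251). Dixdc1, whose protein shares the DIX domain of Dishevelled and Axin, differed by -0.40 (SE 0.13, adjusted p = 0.479). Daam1, a formin that binds Dishevelled, differed by -0.20 (SE 0.07, adjusted p = 0.479), and by -0.26 without line 1 (adjusted p = 0.0547). In all 4 lines the WT-USP21 library of these 3 genes was the lower one. Cxxc5, a Dishevelled-binding inhibitor gene, went the other way. It stood at 3.10 ± 0.543 CPM with WT-USP21 and 1.27 ± 0.452 CPM with ED-USP21 (SD, n = 4 each), a difference of 1.33 (SE 0.27, edgeR adjusted p = 0.273, and 0.000863 in DESeq2).

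Genes read as transcriptional output of beta-catenin had a median difference of 1.85 over the 8 tested, of which edgeR called 0 with 4 lines. Without line 1 edgeR called 7 of 9 higher and 0 lower, against 2.51% and 2.06% of all genes. DESeq2 with 4 lines called 7 of 8 higher and 0 lower, against 1.95% and 0.568%. Rnf43, the ligase gene that removes Frizzled as feedback, stood at 11.5, 13.9, 14.8 and 15.0 CPM with WT-USP21 and at 7.85, 9.18, 8.43 and 8.88 CPM with ED-USP21. The groups did not overlap, and the difference was 0.68 (SE 0.09, edgeR adjusted p = 0.131, and 0.0125 without line 1). Its relative Znrf3 differed by 0.17 (SE 0.12, adjusted p = 0.787) and was lower with WT-USP21 in line 1 (-0.18). Tcf7, Ephb3, Ephb2, Axin2 and Lgr5 lay higher with WT-USP21 in every line, with edgeR adjusted p-values without line 1 of 0.0089, 0.00995, 0.00836, 0.00112 and 0.0092. Tnfrsf19 had 126 reads in the WT-USP21 libraries against 6 in the others. Genes too low to test with 4 lines were Notum with 80 reads against 5, Sp5 with 98 against 2, Lef1 with 38 against 3 and Ascl2 with 16 against 19. Sp5 had 0 reads in both libraries of line 1, and Nkd1 had 0 in all 8.

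**Figure D5:**
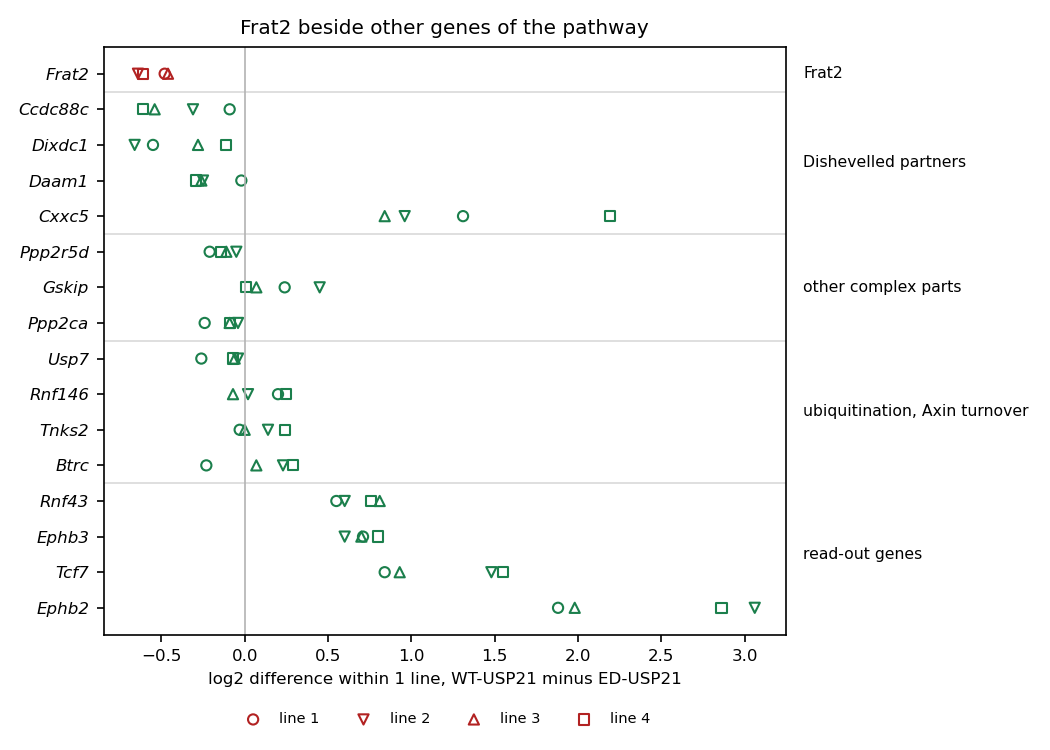
Log2 difference, WT-USP21 minus ED-USP21 (x axis), within lines 1 to 4 (symbols) for Frat2 in red and other pathway genes in green, grouped as written at the right. Of the read-out genes 4 are drawn, and Axin2, Lgr5, Tnfrsf19 and Znrf3 are left out. Frat2, Ccdc88c, Dixdc1 and Daam1 lie left of 0 in all lines, as do Ppp2r5d, Ppp2ca and Usp7 by smaller amounts, while Cxxc5 and the read-out genes drawn lie right of it.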

How the data were processed

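The deposited values are raw read counts per gene, 1 library per file, which the authors made with tools named in the submitters' processing notes as CASAVA, STAR, TopHat, Cufflinks and HTSeq on build mm9, without versions or roles. Rows that name no gene (11.4% to 20.59% of counts) were left out. The annotation and strand setting of the counting were not stated. Libraries were grouped by the labels, with 4 WT-USP21 and 4 ED-USP21. Nothing says that the lines came from separate animals, so p-values of the within-line tests measure how construct differences vary over these lines. edgeR 4.0.16 (R 4.3.3, quasi-likelihood, TMM, default filter with a minimum count of 10) was fitted to the whole table with the line as a block. SE is the absolute log2 difference over the square root of F, and a prior count of 2 entered log2 CPM. The construct by background interaction was fitted likewise. DESeq2 1.42.0, limma 3.58.1 (limma-trend), other scalings and filters, and leaving out each line were alternatives, and tests were tried on simulated counts. The line number pairs the libraries, since equal numbers mean the same cell line: their deviations from the group means correlated at 0.77, 0.503, 0.468 and 0.347 across genes in lines 1 to 4. Across constructs, lines 2, 3 and 4 also correlated with each other, at 0.242 to 0.43. The value of line 4 with itself is within that range, so the correlations do not set its pair apart. The group means include line 1, which moves lines 2, 3 and 4 the same way, so these values cannot decide their independence. Line 1 correlated with the others at -0.59 to -0.45. Exon lengths and transcript sequences came from GENCODE M21, and upstream sequences from RefSeq, both on a later build than mm9.

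Named were the 10 genes, Usp21, the read-out genes that hold reads, the 4 genes with the smallest p of each other pathway list and the 3 genes most like Frat1 and Frat2 among those with a mean of at least 1 CPM. Ctnnb1, Peg12, Golgb1, Acadvl, 9130221H12Rik, Nkd1 and marker genes were named after their values were seen. The genes and lists were chosen with earlier results of these data known. The name of 1 shared transgene is not reported here.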

Additional observations from a re-analysis of the deposited data

Results flagged for a closer look

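In 104 groups of 4 values, 17 had 1 value, of a library or of a line difference, far from the other 3. Chance gives about 1 in 20, or 5.2, in independent groups. These groups share libraries and genes, so 5.2 is no strict expectation for them. That value belonged to line 1 in 12 of the 17. Gsk3a was low in line 1 with both constructs, at 34.5 CPM with WT-USP21 and 39.1 CPM with ED-USP21, against 47.7 CPM in the nearest library of each group. Dvl1 was low in the WT-USP21 library of line 3, at 72.8 CPM against 101 CPM. The Usp21 difference of line 1 was -3.50 on the log2 scale against -1.73 in the nearest line.

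Of the other pathway genes, Ppp2r5d was at 174 CPM in the ED-USP21 library of line 1, and Ppp2ca at 281 and 331 CPM with WT-USP21 and ED-USP21 there. Usp7 was at 175 and 210 CPM in line 1, with a log2 difference of -0.26. Btrc was at 19.3 CPM and Daam1 at 62.9 CPM in the WT-USP21 library of line 1, where Daam1 differed by -0.02. Rnf146 was at 30.8 CPM in the WT-USP21 library of line 2. Tnks2 was at 815 CPM and Tcf7 at 11.8 CPM in the ED-USP21 library of line 3, and Tnfrsf19 at 0.081 CPM in that of line 2, against 0 in the other 3.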

How the results depend on the processing

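Frat2 was the only one of the 10 genes that passed in any alternative run, and its log2 difference stayed between -0.58 and -0.52 in those with counts as deposited and was -0.59 after a correction for GC content of transcripts, chosen after the data were seen. Its adjusted p over the alternatives ran from 3.35e-07 to 1. The number of the 10 called was 1 in DESeq2 and 0 to 1 on leaving out a line, the 1 being without line 1. Over all genes the within-line count of 4 became 58 with no filter (55 higher, 3 lower), 0 with a minimum mean of 1 CPM, where Frat1 was not tested, 407 in DESeq2 (315 higher, 92 lower), 1 with a robust spread and 0 to 746 on leaving out a line: 746 (409 higher, 337 lower) without line 1, and 0 without line 2, 3 or 4. Without the line as a block, edgeR called 0 genes, with 392 at an unadjusted p under 0.05, and the sign of Dvl1 turned to 0.00051. That sign also turned, to 0.02, with library totals in place of TMM. The interaction count of 0 became 7 in DESeq2 and stayed 0 with any line left out. With a line left out, differences that changed sign ranged from -0.08 to 0.01 for Gsk3a, -0.09 to 0.13 for Gsk3b, -0.04 to 0.09 for Apc, -0.04 to 0.05 for Dvl1 and -0.0022 to 0.22 for Dvl2. The Usp21 difference ranged from -2.28 to -1.63. The cause of these changes was not tested. Frat1 had 34 to 81 reads a library, and counting error alone gave its pooled ratio an interval of 0.656 to 0.985, narrower than the fitted 0.502 to 1.36 over lines.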
